A study of Mus musculus with 9 samples.

Results

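Of 20807 autosomal protein-coding genes in mouse (GENCODE M21, GRCm38/mm10), 9864 carried a HOX13 peak at a promoter, which is 47.4% of them. A gene was counted when a called interval overlapped the window from 500 bp before to 500 bp after any of its transcription start sites in at least 2 wild-type (wt) peak lists made with one antibody. By this rule 6964 genes (33.5% of all) were called with both anti-HOXA13 and anti-HOXD13, 2411 genes (11.6%) with HOXA13 only and 489 genes (2.35%) with HOXD13 only. The other 10943 genes met the rule with neither antibody. Called with HOXA13, with or without HOXD13, were 45.1% of genes, and with HOXD13 35.8%. Because the genes were chosen by the wt interval calls themselves, these counts are a description and carry no test.

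CUT&RUN maps a chromatin protein by directing a nuclease to it with an antibody, so that fragments cut around the protein are released and sequenced. HOXA13 and HOXD13 are the homeodomain factors of the most posterior Hox group, both produced in the distal limb bud and needed together for the formation of digits. Promoters are stretches of accessible chromatin around transcription start sites, and many in mammals are rich in CpG dinucleotides. HOX13 homeodomains prefer AT-rich sites with a TAAA core, whereas CpG-rich promoters are rich in G and C.

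The series held 9 peak lists, 1 per library, from distal forelimb cells of B6CBAF1 mouse embryos and were made to locate enhancers under HOX13 control. Wild-type embryos at E12.5 gave 3 HOXA13 and 3 HOXD13 lists. The II1TDOM 542 line, in which the II1 limb enhancer with a promoter and a lacZ reporter was placed in the T-DOM regulatory domain beside the HoxD cluster, gave 2 HOXA13 lists at E12.5 and 1 HOXD13 list labelled E11.5. The study's text describes the 542 embryos used for this assay as homozygous for the insertion, and cells of several embryos were pooled for a library. The line is 1 insertion event. The study's methods describe CUT&RUN replicates as duplicates from separate pools of different embryos and litters, and the labels give no pool for each of the 3 wt lists per antibody, so the p-values below measure the spread between these libraries. The wt HOXD13 replicate 3 was labelled as a reanalysis of an earlier sample, and replicate 3 of each antibody differed from the others in where their promoter summits lay, as described below. By the study's reporting summary, the replicates 3 of both antibodies shared a read length that the other wt libraries did not have. The 542 HOXD13 library had yet another read length.

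The lists held 23939 to 117719 intervals, with a depth of about 36900000 to 65500000 read ends worked out from the background level in each list. No library without a specific antibody was used here, so binding of a HOX13 protein and antibody-independent cutting of open promoter chromatin cannot be told apart in these values. The lists measure no expression, so the labelled tissue could not be checked against marker transcripts, and peaks at promoters of marker genes are described below instead.

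The sequences under the strongest promoter peaks show what kind of DNA was called. Each runs 50 bases to either side of the main summit (the summit with the highest −log10 p) in the list where that gene ranked highest, on the plus strand of GRCm38. Capitals mark every match, on either strand, to CYNRTAAA, a HOX13 consensus written with Y for a pyrimidine, R for a purine and N for any base. The first set is from the 5 genes that ranked highest over all 6 wt lists, and 2 of the 5 held a match.

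Gm10800 (chr2:98667102-98667202): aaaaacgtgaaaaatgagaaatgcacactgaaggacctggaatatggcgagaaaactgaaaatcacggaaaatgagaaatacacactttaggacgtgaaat
Cic (chr7:25267938-25268038): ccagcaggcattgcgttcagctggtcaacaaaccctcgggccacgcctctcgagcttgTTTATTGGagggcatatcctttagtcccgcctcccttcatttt
Fbrs (chr7:127478403-127478503): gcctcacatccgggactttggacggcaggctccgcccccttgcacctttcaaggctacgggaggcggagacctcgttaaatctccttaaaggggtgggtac
Stip1 (chr19:7040059-7040159): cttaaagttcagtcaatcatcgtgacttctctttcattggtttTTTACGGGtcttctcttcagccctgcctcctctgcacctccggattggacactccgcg
Kmt5c (chr7:4739844-4739944): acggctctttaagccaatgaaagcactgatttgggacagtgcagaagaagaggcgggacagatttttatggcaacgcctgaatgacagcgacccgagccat

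The second set shows the genes called in all 3 HOXA13 lists and no HOXD13 list that ranked highest, and the third set those called in all 3 HOXD13 lists and no HOXA13 list. In 5 of these 6 no match to the consensus was found, and the match at Zfp36 lay partly outside the 50-bp window around the summit that is used for the counts below. The printed summits of Gpsm3, Cerkl and Gata2 lay at -576, 1170 and -854 bp from the nearest start site of the gene, outside the window their intervals reached into. In HOXA13 replicates 1 to 3 the main summit moved, at Cerkl from 1170 to -124 and 899 bp, and at Borcs7 from -18 to 81 and -460 bp.

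Gpsm3 (chr17:34589180-34589280): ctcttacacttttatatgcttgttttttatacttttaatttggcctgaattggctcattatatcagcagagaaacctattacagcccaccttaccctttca
Cerkl (chr2:79427671-79427771): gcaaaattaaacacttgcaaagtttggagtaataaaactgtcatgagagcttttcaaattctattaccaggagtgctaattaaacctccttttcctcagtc
Borcs7 (chr19:46689838-46689938): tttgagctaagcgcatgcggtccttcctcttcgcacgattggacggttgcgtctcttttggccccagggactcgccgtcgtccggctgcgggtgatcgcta

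Sema4d (chr13:51793719-51793819): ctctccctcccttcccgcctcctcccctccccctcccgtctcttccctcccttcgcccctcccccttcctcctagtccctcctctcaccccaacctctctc
Gata2 (chr6:88197430-88197530): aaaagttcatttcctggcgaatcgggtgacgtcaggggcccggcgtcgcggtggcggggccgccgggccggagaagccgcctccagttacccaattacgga
Zfp36 (chr7:28379257-28379357): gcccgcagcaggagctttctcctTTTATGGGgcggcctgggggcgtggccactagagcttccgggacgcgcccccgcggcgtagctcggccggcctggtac

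The last set was chosen after the values were seen, to show promoters where the consensus did lie under the peak. Of the 4028 genes called in all 6 wt lists, 16 (0.397%) had a match within the 50-bp window at the main summit in all 6 lists, and 3555 (88.3%) had one in none. Shown are 4 of the highest ranked of the 16.

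Ilf2 (chr3:90476011-90476111): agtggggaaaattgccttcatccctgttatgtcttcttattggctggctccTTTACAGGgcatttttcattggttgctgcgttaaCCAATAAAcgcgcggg
Grcc10 (chr6:124741430-124741530): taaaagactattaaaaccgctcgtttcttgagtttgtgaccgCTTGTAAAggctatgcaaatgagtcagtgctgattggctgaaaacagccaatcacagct
Selenoi (chr5:30232024-30232124): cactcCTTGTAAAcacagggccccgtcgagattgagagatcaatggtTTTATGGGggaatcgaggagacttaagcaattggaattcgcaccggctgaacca
Dexi (chr16:10543110-10543210): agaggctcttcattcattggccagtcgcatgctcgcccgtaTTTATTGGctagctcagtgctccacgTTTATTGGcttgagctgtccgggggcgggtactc

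Promoters were over-represented among the intervals of every list. Promoter windows make up 1.09% of the autosomes, and the intervals covered 8.61% to 27.2% of promoter bases against 0.429% to 2.66% of the genome, a ratio of 9.03 to 20.1. In the wt HOXA13 lists 14.0%, 16.4% and 12.7% of autosomal intervals overlapped a promoter window (replicates 1 to 3), a mean of 14.4% ± 1.87 (SD, n = 3). In the wt HOXD13 lists the shares were 23.7%, 17.1% and 16.9%, a mean of 19.3% ± 3.86 (SD, n = 3). All 3 HOXD13 shares lay above all 3 HOXA13 shares, and the difference of -4.90 percentage points gave p = 0.1 in a two-sided exact permutation test, the smallest that 3 against 3 libraries allow (0.125 after Benjamini-Hochberg adjustment over 5 tests). With intervals limited to the part of the genome where coordinates of the 542 lists are comparable, wt HOXA13 lists had 14.3% ± 1.85 (SD, n = 3) and 542 HOXA13 lists 11.8% ± 0.521 (SD, n = 2), a difference of 2.48 points that the exact permutation test did not separate (p = 0.2, adjusted 0.2).

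The number of promoters called varied widely between lists of one antibody. Promoter intervals were found at 11193, 9084 and 7279 genes in the 3 wt HOXA13 lists and at 5692, 11967 and 6460 genes in the 3 wt HOXD13 lists. The ranges of the antibodies overlapped, and both the highest and the lowest count were HOXD13 lists. The list with the most called genes, HOXD13 replicate 2, had 76838 intervals, and the list with the fewest, HOXD13 replicate 1, had 23939.

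**Figure D1:**
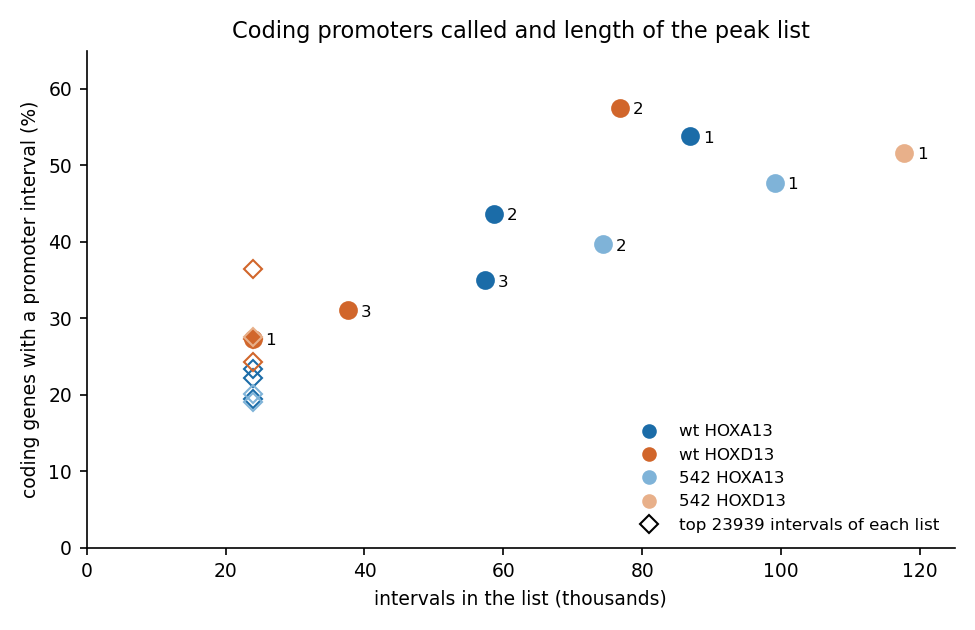
Percentage of the 20807 coding genes with a promoter interval (y axis) against the number of intervals in the list (x axis, in units of 1000), with 1 filled circle per library labelled by its replicate number. Open diamonds give the same libraries when only their 23939 strongest intervals are kept: the wt HOXA13 lists then call 19.5% to 23.3% of genes and the wt HOXD13 lists 24.3% to 36.4%.

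Cut to the same length of 23939 intervals, ranked by −log10 p, the wt HOXA13 lists called 4857, 4621 and 4061 genes and the wt HOXD13 lists 5692, 7577 and 5048. At that length all 3 HOXD13 lists called more promoters than all 3 HOXA13 lists. The classes turned over with it: 4203 genes were called with both antibodies, 297 with HOXA13 only and 1953 with HOXD13 only, so that the larger single-antibody class was HOXA13 only in the full lists and HOXD13 only in lists of equal length. Of the 2411 HOXA13-only genes, 182 were still HOXA13-only, 2229 met the rule with neither antibody and 0 became HOXD13-only. Of the 489 HOXD13-only genes, 153 remained and 336 met it with neither. The 1953 HOXD13-only genes at equal length comprised those 153 and 1800 genes that the full lists called with both.

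Most genes of the single-antibody classes were also called in 1 list of the other antibody. Only 14 genes were in all 3 HOXA13 lists and no HOXD13 list, and 6 genes in all 3 HOXD13 lists and no HOXA13 list. A further 169 genes were in 2 HOXA13 and no HOXD13 lists, and 95 in 2 HOXD13 and no HOXA13 lists. Below the rule, 751 genes were in 1 HOXA13 and no HOXD13 list, and 985 in 1 HOXD13 and no HOXA13 list. The other HOXA13-only genes (1557 in 2 HOXA13 lists and 671 in all 3) were called in 1 HOXD13 list, in 2193 cases replicate 2. Of the HOXA13-only class 91.0% were called in HOXD13 replicate 2, against 0.207% in replicate 1 and 1.24% in replicate 3. Of the HOXD13-only class 63.2% were called in HOXA13 replicate 1, 6.54% in replicate 2 and 9.61% in replicate 3. Over all genes, HOXD13 replicates 1 to 3 called 27.4%, 57.5% and 31.0%, and HOXA13 replicates 1 to 3 called 53.8%, 43.7% and 35.0%. The rule lets a single-antibody gene be in at most 1 list of the other antibody, which limits these class shares. Without HOXD13 replicate 2, 4486 genes were called with both, 4889 with HOXA13 only and 70 with HOXD13 only. Without HOXA13 replicate 1, 730 genes were HOXA13-only and 1899 HOXD13-only.

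Genes near the threshold had low peaks. Fold enrichment, the ratio of fragment pileup at the summit to the local background, had a median of 2.90 among the 2586 genes in exactly 1 HOXA13 list, 3.50 among the 3155 in exactly 2 and 4.90 among the 6220 in all 3. For HOXD13 the medians were 3.25 (4660 genes in 1 list), 4.14 (2900 genes in 2) and 5.07 (4553 genes in 3). The both-antibody class had median fold enrichments of 3.96 to 6.49 over the 6 wt lists, the HOXA13-only class 3.12 to 3.62 in the HOXA13 lists and the HOXD13-only class 3.20 to 3.43 in the HOXD13 lists. By percentile of −log10 p within each list, the HOXA13-only class had medians of 47.2, 35.0 and 37.1 in the HOXA13 lists, where the both-antibody class had 80.4, 70.2 and 69.4. The HOXD13-only class had 25.9, 63.0 and 33.2 in the HOXD13 lists, where the both-antibody class had 65.6, 89.7 and 69.1. Each single-antibody class lay below the both-antibody class in each list of its own antibody, and in HOXD13 replicate 2 the HOXD13-only class still lay above the middle of the list. Calls in these same wt lists set the classes, so this order is a description and carries no test.

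The 542 lists took no part in choosing the genes and show how far the classes recur in other libraries. Genes with a window beyond the insertion site on chromosome 2 were left out there (1283 genes, 516 of them with promoter peaks), since the insertion shifts coordinates past it, which leaves 19524 genes. Over those, 50.5% of genes were called in 542 HOXA13 replicate 1, 42.1% in replicate 2 and 54.7% in the 542 HOXD13 list. Of the 6624 both-antibody genes 98.5%, 93.6% and 98.8% were called in these lists. Of the 2273 HOXA13-only genes 80.7% and 57.4% were called in the 542 HOXA13 lists, and 84.2% in the 542 HOXD13 list. Of the 451 HOXD13-only genes 69.4% and 42.8% were called in the 542 HOXA13 lists and 83.4% in the 542 HOXD13 list.

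In the 542 HOXD13 list the HOXA13-only and HOXD13-only genes were called at nearly the same share, and in 542 HOXA13 replicate 2 the HOXD13-only share was next to the share over all genes. Genes in neither wt class were called at 11.8%, 5.07% and 18.1%. Called in all 3 of the 542 lists were 92.8% of both-antibody genes, 52.6% of HOXA13-only genes, 36.8% of HOXD13-only genes and 3.52% of the rest. The 542 HOXD13 list was the longest of the 9, and its stage label differs from the others, which cannot be told apart from its antibody.

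**Figure D2:**
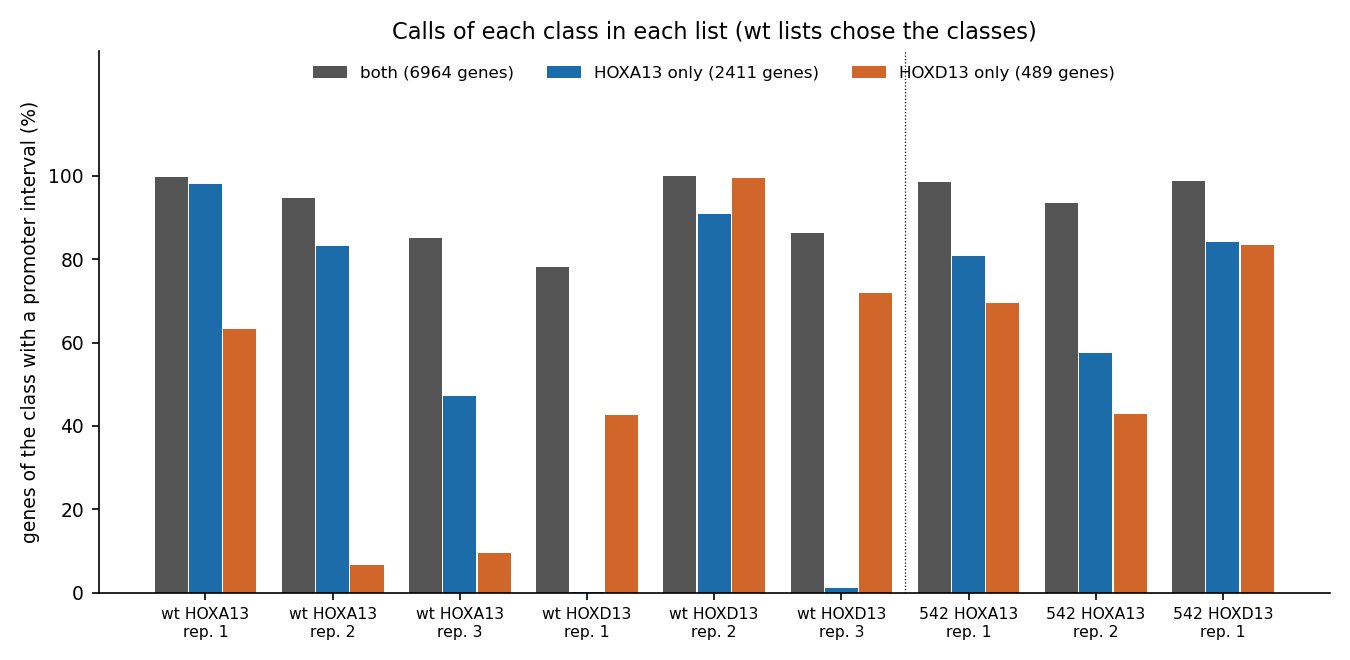
Percentage of each class with a promoter interval (y axis) in each of the 9 lists (x axis), with grey bars for genes called with both antibodies, blue for HOXA13 only and orange for HOXD13 only. The bars left of the dotted line are the wt lists that chose the classes, and the bars right of it are the 542 lists, counted over 6624, 2273 and 451 genes. The HOXA13-only bar reaches 91.0% in wt HOXD13 replicate 2, which called 57.5% of all genes.

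Peaks called at promoters sat just upstream of the start site. Among promoter intervals with a main summit within 500 bp of the nearest coding start site, the median position was -34, -31 and -67 bp in the 3 wt HOXA13 lists and -52, -30 and -60 bp in the 3 wt HOXD13 lists. Between 62.1% and 71.2% of these summits lay upstream over the 6 wt lists. The 100 bp directly upstream held 18.9% to 30.6% of all main summits within 2 kb of a start site in the wt lists, and the lowest 2 shares were replicate 3 of HOXA13 and replicate 3 of HOXD13. In the same 2 lists the lower quartile of the positions reached -224 and -193 bp, against -97 to -131 bp in replicates 1 and 2.

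**Figure D3:**
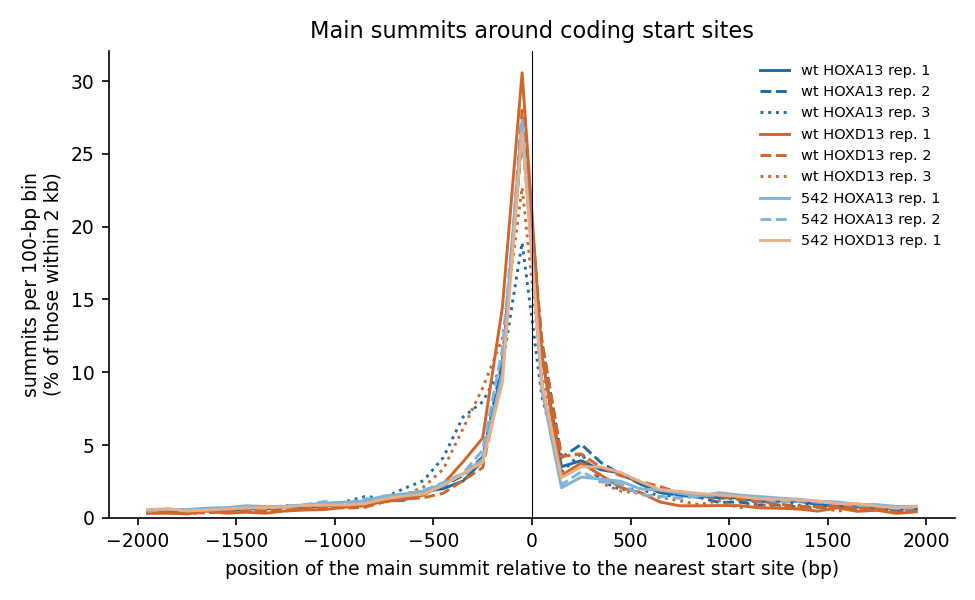
Main summits per 100-bp bin as a percentage of those within 2 kb (y axis) against their position relative to the nearest coding start site, in bp, with transcription to the right (x axis), with 1 line per library. All 9 lines peak in the bin directly upstream of the start site, and the dotted lines of replicates 3 are lower there (18.9% and 22.7%) and have a wider upstream shoulder.

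The consensus was less frequent at promoter summits than at distal ones. Within 50 bp centred on the main summit, 4.03%, 3.79% and 3.86% of promoter intervals held CYNRTAAA in the wt HOXA13 lists and 4.04%, 2.81% and 3.37% in the wt HOXD13 lists. At distal intervals, more than 10000 bp from any start site, the shares were 14.0%, 13.8% and 10.3% for HOXA13 and 14.4%, 9.73% and 8.47% for HOXD13. No promoter share reached the lowest distal share. The mean log2 ratio of promoter to distal share was -1.67 ± 0.23 (SD, n = 6), negative in 6 of 6 libraries, with p = 0.031 in a two-sided exact permutation test that flips signs within libraries, the smallest that 6 libraries allow, and 0.0521 after adjustment. The ratio did not differ detectably between antibodies, by -0.04 on the log2 scale (p = 0.6, exact permutation).

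Base composition differed between the same windows, and its part in the contrast was not tested. The median GC content of 200 bp around the summit was 58% to 64% at promoter intervals and 39.5% to 46.5% at distal ones, a difference of 19.8 ± 1.57 percentage points (SD, n = 6; p = 0.031 in the exact permutation test, adjusted 0.0521). Median GC content in longer windows around main start sites was 55.4% over all 20807 genes and 50.35% over genes in neither class. Both lay above the distal medians, so splitting intervals by distance to start sites largely set the sign of the GC difference beforehand. Its p-value therefore carries no conclusion about these libraries. In windows 1000 bp to either side, 2.05% ± 0.0965 of promoter windows and 2.404% ± 0.136 of distal windows held the consensus (SD, n = 6). Summit windows at promoters held it in 3.65% and those at distal intervals in 11.8%, both above their own flanks. In 50-bp windows at the main start site of all 20807 genes, 1.197% held it, and at those of the both-antibody genes 0.804%.

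**Figure D4:**
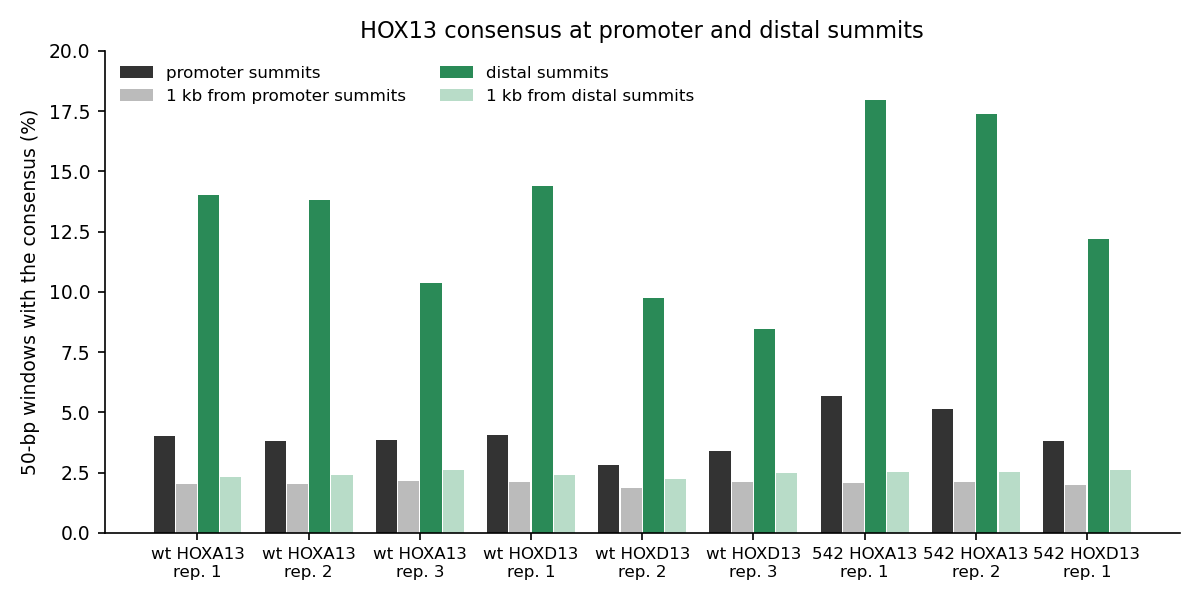
Percentage of 50-bp windows with the HOX13 consensus (y axis) in each of the 9 lists (x axis), at main summits of promoter intervals (black) and distal intervals (dark green) and 1 kb from each (grey and light green). Distal bars reach 8.47% to 17.9%, promoter bars 2.81% to 5.67% and the flanks stay between 1.87% and 2.62%.

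Higher promoter peaks held the consensus more often. In the top 25% of promoter intervals by fold enrichment, 7.08%, 7.09% and 6.41% held it in the wt HOXA13 lists and 6.51%, 3.79% and 5.37% in the wt HOXD13 lists. In the bottom 25% the shares were 1.74%, 1.73% and 2.12%, and 2.65%, 1.66% and 2.30%. Each library's top 25% lay above its bottom 25%, and HOXD13 replicate 2, with a median fold enrichment of 8.37 in its top 25%, had the lowest share there. At distal intervals the top 25% held it in 11.9% to 22.0% over the same lists.

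By class, the consensus lay at the strongest promoter interval in 3.27% to 4.32% of the both-antibody genes over the 6 wt lists. In the HOXA13 lists it lay at 3.72%, 2.85% and 2.81% of HOXA13-only genes, and in the HOXD13 lists at 0.962%, 2.26% and 0.855% of HOXD13-only genes, where the counts were 2 of 208, 11 of 486 and 3 of 351. The order of both-antibody and HOXA13-only genes was reversed in the 542 HOXA13 lists, which took no part in choosing the classes. There it lay at 5.18% and 4.92% of both-antibody genes and at 5.40% and 5.59% of HOXA13-only genes. In the 542 HOXD13 list the shares were 3.87% of both-antibody, 3.29% of HOXA13-only and 2.39% of HOXD13-only genes.

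Common promoter elements, searched on both strands, differed in how often they lay at promoter summits. GGGCGG, the GC box bound by SP-family factors, was in 20.8% ± 2.52 of 50-bp promoter summit windows against 2.48% ± 0.142 at 1000 bp and 0.756% ± 0.256 at distal summits (SD, n = 6 wt lists). CCAAT, the box bound by NF-Y, was in 13.6% ± 2.37 against 6.01% ± 0.142 in the flanks, and in 9.22% ± 0.832 of distal summit windows. TGACGTCA, the cyclic AMP response element, was in 0.992% ± 0.115 against 0.0376% ± 0.0179 in the flanks. TATAAA, the TATA box, went the other way, in 2.33% ± 0.434 of promoter summit windows against 3.14% ± 0.146 in the flanks, and in 6.68% to 11.4% of distal summit windows. In 50-bp windows at the main start sites of the 9864 called genes, the GC box, the CCAAT box, the cyclic AMP response element and the TATA box were in 25.3%, 7.45%, 1.30% and 0.760%, and at those of all genes in 16.9%, 6.58%, 0.779% and 1.46%. The mean shares of the GC box and the cyclic AMP response element at promoter summits were thus below those at the start sites of the called genes themselves. The CCAAT share at promoter summits ran from 10.9% to 17.7% over the 6 lists, each above that at the start sites of the called genes. The start-site windows were centred on the start site itself, and most summit windows lay upstream of it. These shares thus compare different positions, and the part of position was not tested. A match describes the letters only.

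Promoter peaks were slightly higher than distal ones. The median fold enrichment of promoter intervals was 4.24, 3.75 and 3.55 in the wt HOXA13 lists and 4.17, 4.19 and 3.82 in the wt HOXD13 lists. Distal medians were 3.82, 3.68 and 3.30, and 3.89, 3.19 and 3.44. The mean log2 ratio was 0.15 ± 0.13 (SD, n = 6), positive in 6 of 6 libraries (p = 0.031 in the exact permutation test, adjusted 0.0521), and it was 0.01 (p = 0.844, exact permutation) when each list was cut to its 10000 strongest intervals.

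CpG-rich promoters made up most of the called genes. A promoter was taken as CpG-rich when the 1001 bp around its main start site had an observed-to-expected CpG ratio of at least 0.6 and at least 50% GC. Of the both-antibody genes 81.7% were CpG-rich, of the HOXA13-only genes 70.7%, of the HOXD13-only genes 63.8%, and of the genes in neither class 18.98%. Read the other way, 78.8% of the 9786 CpG-rich genes were called and 19.6% of the 11021 others. The median CpG ratio was 0.772, 0.723 and 0.680 in the 3 classes and 0.256 in the rest.

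The number of start sites, which the rule lets add up, also moved with the calls. Called were 41.9% of genes with 1 start site, 46.8% with 2, 55.6% with 3 and 67.8% with 4 or more. Among genes with 1 start site, 76.1% of the CpG-rich and 13.9% of the others were called. In 2244 genes a promoter window overlapped that of a coding gene on the other strand, in either orientation, and 84.1% of them were called. Of both-antibody genes 21.9% were of this kind, against 3.26% of the genes in neither class. One interval can then count for both neighbours, so such genes are not independent.

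The promoters that ranked highest included those of Cic, Fbrs, Stip1 and Kmt5c, behind Gm10800. Rank was the percentile of −log10 p of the strongest promoter interval within its list, and the median percentile over the 6 wt lists chose the 10 genes described here. At Cic, a transcriptional repressor of receptor tyrosine kinase targets, fold enrichment was 16.0, 15.5 and 20.8 in the wt HOXA13 lists and 16.9, 16.7 and 11.8 in the wt HOXD13 lists, and 15.8, 14.0 and 19.6 in the 542 lists (HOXA13 replicates 1 and 2, then HOXD13). The antibodies overlapped, and the consensus lay within 50 bp in 4 of the 6 wt lists. At Fbrs, which encodes fibrosin, the values were 18.2, 17.3 and 17.3 for HOXA13 and 17.96, 17.9 and 16.6 for HOXD13, nearly level in all 6, and no list had the consensus at the summit. The Fbrs summit lay 746 to 751 bp upstream of the nearest start site in these lists, outside the window that its interval reached into.

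At Stip1, a co-chaperone of HSP70 and HSP90, fold enrichment was 21.3, 19.9 and 11.8 for HOXA13 and 15.1, 18.9 and 13.2 for HOXD13. Replicate 3 was the lowest of each antibody, and the consensus lay at the summit in 5 of the 6 lists. At Kmt5c, a histone H4 lysine methyltransferase, it was 21.2, 18.7 and 14.5, and 16.9, 21.9 and 11.6, again lowest in replicates 3. Top rank by −log10 p went to Gm10800, a predicted gene in satellite repeats on chromosome 2 where reads pile up in many sequencing assays, with 37.0 to 41.5 in the 6 lists, the highest fold enrichment of the 10 genes and nearly the same in each library.

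The other 5 were Csnk1g2, a casein kinase, Cbx5, the heterochromatin protein HP1 alpha, Slc25a25, a mitochondrial carrier, Rbm15, an RNA-binding protein, and Zbtb5, a zinc finger factor, with fold enrichments between 9.32 and 19.2. The Cbx5 interval is shared with Hnrnpa1, which encodes a splicing factor and is transcribed from the same promoter region, and ran from 11.8 to 13.3 in the 6 wt lists. In the set with the consensus at every wt summit, Ilf2, an RNA-binding factor, had 21.04, 19.2 and 9.12 for HOXA13 and 12.9, 19.2 and 10.7 for HOXD13. Dexi had 16.6, 12.49 and 7.15, and 11.1, 14.98 and 6.1953. Both were lowest in replicate 3 of each antibody and held the match in all 3 of the 542 lists as well.

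The strongest promoters of one antibody alone were low by comparison. Gpsm3, a regulator of G-protein signalling, had a fold enrichment of 5.64, 4.11 and 3.67 in the HOXA13 lists. Pileups worked out from the listed values were 109, 50 and 35 reads there (exact Poisson 95% intervals 89.5 to 131, 37.1 to 65.9 and 24.4 to 48.7, counting error only). It was called in both 542 HOXA13 lists, at 4.28 and 5.35, and not in the 542 HOXD13 list. Borcs7, a lysosome positioning factor, had 4.50, 2.43 and 3.82, and was called in 542 HOXA13 replicate 1 at 3.54 and in the 542 HOXD13 list at 3.87. Ppm1f, a protein phosphatase, had 3.10, 3.49 and 3.47 in the wt HOXA13 lists, 4.72 and 4.15 in the 542 HOXA13 lists and 7.96 in the 542 HOXD13 list.

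For HOXD13, Sema4d, a semaphorin, had 3.60, 3.47 and 5.05 in the wt lists, from pileups of 19, 37 and 24 reads, and 12.2 in the 542 HOXD13 list, with no call in either 542 HOXA13 list. Cfl1, the actin-severing protein cofilin, had 2.86, 3.52 and 2.46, was called at 4.85 in the 542 HOXD13 list and was not called in the 542 HOXA13 lists. Gata2, a zinc finger factor of blood progenitors, had 4.03, 5.72 and 3.27, and was called in 542 HOXA13 replicate 1 at 5.22 and in the 542 HOXD13 list at 4.87. An absent call sets no value of 0, since the lists hold no fold enrichment below their own threshold.

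Gene lists were read by their counts against the 47.4% of all genes, and against the 78.8% of CpG-rich and 19.6% of other genes. Housekeeping lists were called most: 33 of 34 translation factors, 48 of 50 DNA replication and cell cycle genes, 40 of 44 splicing factors, 72 of 81 ribosomal proteins, 69 of 78 mitochondrial ribosomal proteins, 27 of 31 proteasome subunits and 76 of 91 subunits of respiratory complexes I to V. Among the CpG-rich genes of these 7 lists 86.2% to 97.1% were called. Genes that were not CpG-rich were called in 9 of 9 DNA replication and cell cycle genes and 4 of 4 splicing factors. The counts were 9 of 11 for ribosomal and 9 of 11 for mitochondrial ribosomal proteins. For proteasome subunits they were 2 of 2 and for respiratory complexes 12 of 23, and no translation factor was of this kind. Of chromatin genes 31 of 40 Polycomb and trithorax genes and 19 of 25 SWI/SNF subunits were called, but 80% and 92% of these lists were CpG-rich, and of their CpG-rich genes 24 of 32 (75%) and 18 of 23 (78.3%) were called, no more than of CpG-rich genes in general. Of the genes in these chromatin lists that were not CpG-rich, 7 of 8 Polycomb and trithorax genes and 1 of 2 SWI/SNF subunits were called. Of replication-dependent histones 51 of 68 were called, 41 of them in all 6 wt lists. By promoter type these were 37 of the 50 CpG-rich ones and 14 of the 18 others. Clustered histone genes can share an interval.

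Among these, Top2a, the topoisomerase of dividing cells, had 17.0, 13.9 and 10.6 for HOXA13 and 11.6, 22.8 and 14.5 for HOXD13, with the ranges overlapping. Psma2, a proteasome subunit, had 20.2, 14.4 and 7.94, and 8.20, 12.1 and 7.31, from an interval that the mitochondrial ribosomal gene Mrpl32 shares. At Rpl23a, a ribosomal protein, the values were 14.2, 11.02 and 8.66, and 9.81, 12.1 and 9.21, and the consensus lay at the summit in all 9 lists, 10 to 16 bp upstream of the start site in the wt lists. Hist1h4j, a histone H4 gene, had 13.9, 13.7 and 6.55, and 10.1, 11.2 and 5.37.

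Limb patterning lists were called above the share of all genes but below the housekeeping lists. Called were 37 of 59 limb transcription factors (22 with both antibodies, 14 with HOXA13 only and 1 with HOXD13 only) and 43 of 64 limb signalling genes (26, 12 and 5). Among CpG-rich genes, of which 78.8% were called, 24 of 41 limb transcription factors and 34 of 48 limb signalling genes were called. Among the other genes, of which 19.6% were called, it was 13 of 18 and 9 of 16. Housekeeping and histone lists that held such genes also lay above 19.6%, as given above. Chondrogenic and matrix genes were called in 13 of 25, with 11 of their 21 genes that were not CpG-rich.

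Of the limb factors, Etv5, a target of FGF signalling, had fold enrichments of 14.98, 12.0 and 8.66 for HOXA13 and 10.3, 13.4 and 10.7 for HOXD13. Prrx1, a marker of limb mesenchyme, had 10.2, 8.46 and 6.17, and 4.04, 6.08 and 5.51, and here each HOXA13 value lay above each HOXD13 value, a difference that was not tested. Hand2, which acts upstream of Shh in the posterior bud, had 8.67, 7.4976 and 3.88, and 6.29, 6.2028 and 3.36. Of the signalling genes, Smad6, an inhibitor of BMP signalling, had 10.5, 8.09 and 7.66, and 8.72, 9.04 and 7.5. Axin2, a target and inhibitor of WNT signalling, had 10.8, 8.54 and 7.70, and 7.96, 8.84 and 6.84. At these, apart from Prrx1, the antibodies overlapped.

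Of the 39 Hox genes 23 were called: 12 with both antibodies, 9 with HOXA13 only and 2 with HOXD13 only. That was 58.97%, against 47.4% of all genes. Of the 22 CpG-rich Hox genes 12 were called (54.5%), against 78.8% of CpG-rich genes in general. Of the other 17 Hox genes 11 were called, against 19.6% in general. Hoxa9, Hoxa7, Hoxa3, Hoxb8, Hoxc5, Hoxd4 and Hoxd9 were called in all 6 wt lists. Hoxa9 had 7.12, 6.88 and 4.70 for HOXA13 and 3.69, 4.88 and 4.45 for HOXD13, and Hoxc5 had 9.95, 9.77 and 4.12, and 4.81, 5.73 and 3.11. At both genes replicates 1 and 2 of HOXA13 lay above every HOXD13 value. At Hoxd9 the values were 5.05, 4.76 and 5.33, and 3.36, 2.67 and 8.70, with the highest and the lowest both HOXD13.

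Other Hox genes called with both antibodies included Hoxa4, Hoxa10 and Hoxd3. Those called with HOXA13 only were Hoxa5, Hoxb6, Hoxb13, Hoxc4, Hoxc6, Hoxc12, Hoxc13, Hoxd10 and Hoxd13, each of them also called in 1 HOXD13 list, and those with HOXD13 only were Hoxd11 and Hoxd12. Hoxd13 itself was called at 2.83 in HOXA13 replicates 1 and 2 and at 2.46 in HOXD13 replicate 2. Hoxd12 was called at 3.26 and 2.58 in HOXD13 replicates 2 and 3 and in no HOXA13 list. Hoxc4 had 7.67, 6.39 and 5.12 for HOXA13 and 4.21 in HOXD13 replicate 2, with the consensus at the summit in all 4 and also in all 3 of the 542 lists, 921 to 935 bp downstream of a start site.

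**Figure D5:**
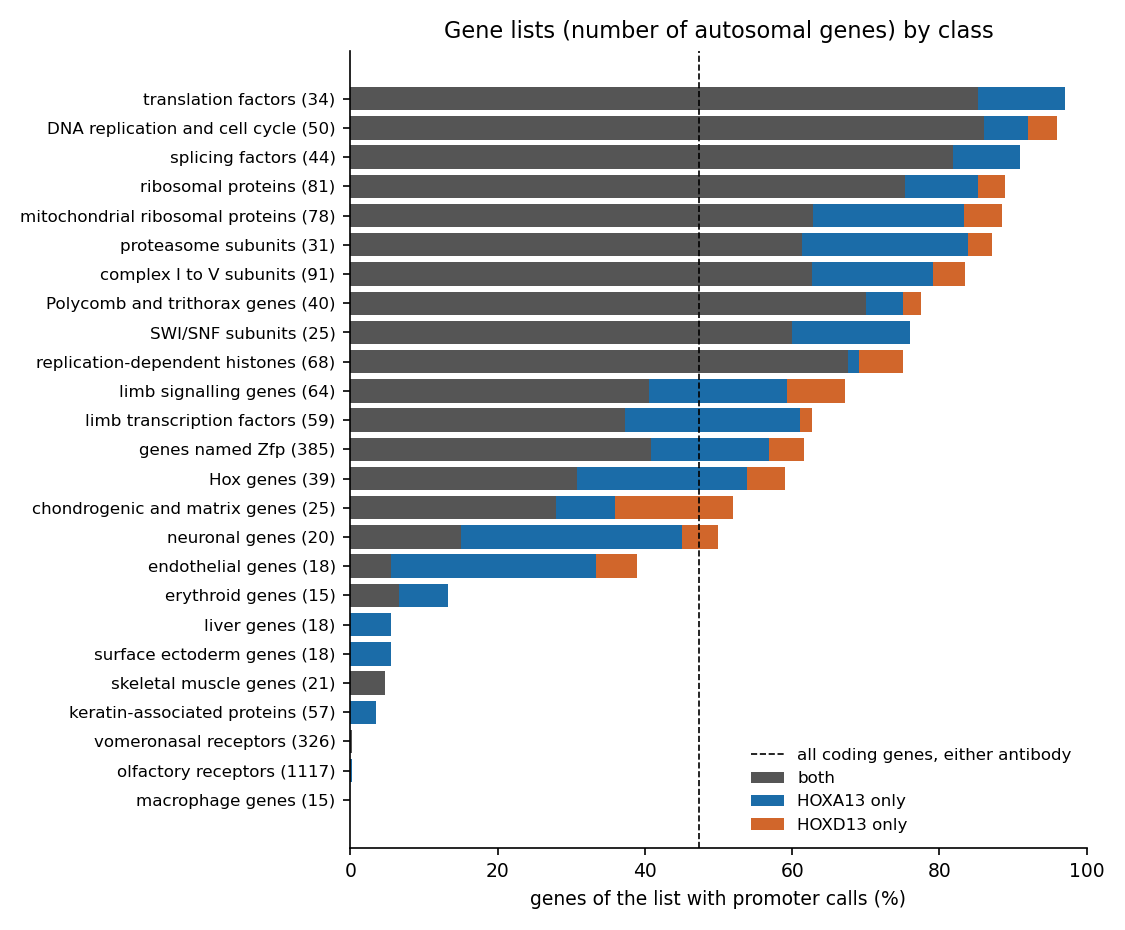
Percentage of the autosomal genes of each list with promoter calls (x axis), divided into both antibodies (grey), HOXA13 only (blue) and HOXD13 only (orange), with the number of genes after each list name (y axis) and a dashed line at the 47.4% of all coding genes. Translation factors stand highest (33 of 34 genes) and macrophage genes lowest (0 of 15).

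Lists of genes that mark other cell types ran from none called to a share just above that of all genes. Called were 0 of 15 macrophage genes, 1 of 18 liver genes, 1 of 18 surface ectoderm genes, 1 of 21 skeletal muscle genes, 2 of 15 erythroid genes, 7 of 18 endothelial genes and 10 of 20 neuronal genes. Few genes of most of these lists were CpG-rich: 0% of macrophage and liver genes, 6.67% of erythroid, 19.05% of skeletal muscle, 27.8% of endothelial and 38.9% of surface ectoderm genes. Among genes that were not CpG-rich, of which 19.6% were called in general, it was 0 of 15 macrophage, 1 of 18 liver, 1 of 14 erythroid, 0 of 17 skeletal muscle, 1 of 11 surface ectoderm, 3 of 13 endothelial and 3 of 6 neuronal genes. Among CpG-rich genes 1 of 1 erythroid, 4 of 5 endothelial, 1 of 4 skeletal muscle, 0 of 7 surface ectoderm and 7 of 14 neuronal genes were called. Mylpf, a fast skeletal muscle light chain, had 15.8, 13.2 and 7.92 for HOXA13 and 9.30, 14.3 and 7.14 for HOXD13. Erg, an endothelial factor also expressed in cartilage, had 9.11, 8.66 and 3.01, and 6.93, 8.16 and 3.27.

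Families of receptors and keratin-associated proteins were nearly empty, with 2 of 1117 olfactory receptors, 1 of 326 vomeronasal receptors and 2 of 57 keratin-associated proteins called. No olfactory receptor or keratin-associated gene and 0.307% of vomeronasal receptors were CpG-rich. Genes with Zfp names, many of them KRAB zinc finger repressors, were called in 237 of 385, with 157 called with both antibodies. These were 162 of the 192 CpG-rich Zfp genes and 75 of the 193 others. Across autosomes the called share ran from 36.7% on chromosome 7 to 58.6% on chromosome 12.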

How the data were processed

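CUT&RUN was done in 9 libraries of distal forelimb cells, and the authors called peaks in each library separately, without pooling. Per the labels, reads were trimmed with cutadapt, mapped to mm10 with Bowtie (for the 542 line, to a genome holding the insertion, by the methods), filtered with SAMtools, handled with Picard and bedtools, and passed to MACS2. The sources differ on whether duplicates were removed. The deposited lists give, per summit, the ratio (fold enrichment) of pileup over background and the −log10 of the p-value and q-value. The summit offset is in bp. The authors' q-value threshold was kept.

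Summit rows that share an interval were joined, and the summit of highest −log10 p was taken as the main one. Start sites were those of all transcripts of coding genes in the GENCODE M21 basic set. Sequences were read from the GRCm38 reference. Library means were compared with exact permutation tests in Python 3.11.15, with pysam 0.24.0 for sequences and pandas 2.3.3 for tables, adjusted over 5 tests, and the functions were tested on simulated data. Pileups and depth were worked out from fold enrichment and p, and at least 99.9% of pileups came out within 0.01 of a whole number. Read ends are not independent molecules, so depth and intervals cover counting error only.

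Named genes were the 10 of highest rank in all 6 wt lists, the 6 of highest rank for each antibody alone, up to 4 genes of each list and all called Hox genes, not all of them printed. Genes sharing an interval counted once among the highest-ranked genes, but each on its own in the class counts and gene lists, where the planned rule would have named them once. Members and lists were chosen with earlier results of these data known. Alternatives changed the window, thresholds, list length, libraries, annotation, distal limit, motif and motif window.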

Additional observations from a re-analysis of the deposited data

How the results depend on the processing

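With a fold enrichment of at least 5, 3662 genes were called (2003 with both antibodies, 1151 with HOXA13 only), and 86.7% of HOXA13-only genes were called in 542 HOXA13 lists. With a −log10 q of at least 5, 4595 genes were called with both and that share was 85.9%. At equal list length, 6453 genes were called (4203 both, 297 HOXA13 only, 1953 HOXD13 only), of which 84.0%, 48.4% and 19.8% were called in the 542 HOXA13 lists cut alike. Those cut lists called 20.09% (replicate 1) and 19.04% (replicate 2) of all genes, so the HOXD13-only share was at the share over all genes. Requiring 3 of 3 lists left 4028 genes with both, 2192 with HOXA13 only and 525 with HOXD13 only. Of the last 2 classes, 1507 and 458 genes were in 2 lists of the other antibody, so the main rule counts them as called with both. The shares of these HOXA13-only and HOXD13-only genes called in the 542 HOXA13 lists were 93.0% and 91.4%, and they do not describe the single-antibody genes of the main rule. Leaving out 1 replicate at a time gave 4486 to 6578 genes with both antibodies, 730 to 4889 with HOXA13 only, 70 to 1899 with HOXD13 only, and 42.8% to 79.4% of HOXD13-only genes called in 542 HOXA13 lists. The HOXA13-only count moved by over 1.5 times without HOXA13 replicate 1 (730) or 2 (1093) and HOXD13 replicate 2 (4889) or 3 (3930), and the HOXD13-only count without HOXA13 replicate 1 (1899), 2 (1551) or 3 (875) and HOXD13 replicate 2 (70) or 3 (205). Settings not named here kept these counts within 1.5 times. The cause was not tested.

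The log2 consensus ratio of promoter to distal summits ranged from -1.74 to -1.63 with 1 library left out, the fold enrichment ratio from 0.11 to 0.18 and the GC difference from 19.3 to 20.2 points, each with p = 0.0625, the smallest that 5 libraries allow in the exact permutation test. With replicates 1 and 2 only they were -1.82, 0.17 and 20 points (p = 0.125, the smallest 4 allow in that test, an exact permutation). With the replicate number as a block they kept -1.67, 0.15 and 19.8 points with p = 0.25 in the exact permutation test, the smallest 3 blocks allow. For the GC difference, whose sign was largely set beforehand, these p-values carry no conclusion either. Same-numbered libraries of the 2 antibodies correlated at -0.0967, -0.0191 and 0.221 over 13047 genes in their promoter calls. Libraries of different number correlated at -0.210 to 0.252, so the numbers were not taken as pairs. The replicates 3 of both antibodies, at 0.221, shared a read length that the other wt libraries did not have. Whether they were handled together was not tested, and libraries handled together would not be independent in these tests. The fold enrichment ratio was 0.11 with a window of 1000 bp and 0.13 with distal intervals beyond 50000 bp (p = 0.0625 each), and 0.0096 over the 10000 strongest intervals (p = 0.844), all exact permutation tests. The comparisons of promoter shares between antibodies and between wt and 542 kept their direction and stayed above the threshold, in designs that could not go below it. A comprehensive GENCODE annotation, added after the data were seen, moved no class count by over 1.5 times. Peaks below the authors' threshold are not listed, so an uncalled promoter is not an unbound one.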
